A study of Mus musculus with 6 samples.

Results

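Liver sinusoidal endothelial cells are represented here by 10 marker genes: Stab1, Stab2, Lyve1, Clec4g, Fcgr2b, Kdr, Eng, Pecam1, Oit3 and Dnase1l3. The genes were taken as a list of names and matched by single gene symbol in the platform's probe-to-gene table. All 10 were found among the 15045 genes with at least 2 usable probe sets. Expression was measured in liver of male mice 6 to 8 weeks old, with 3 samples labelled wild type as controls and 3 samples homozygous for a Dhx32 mutation (Dhx32-/-). Dhx32 encodes an RNA helicase of the DEAH-box family, and the nature of the allele, the strain background and the origin of the animals are not given in the sources used here. No other treatment is labelled for either group. Each sample was hybridised to 1 exon-level array. The labels do not say that each came from an animal of its own, so the p-values below measure only the spread between these 6 samples, part of which may be technical.

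The hepatic sinusoid is lined by a flattened endothelium with open pores and no continuous basement membrane, through which plasma reaches the hepatocytes. Its cells are scavengers. They take up hyaluronan, modified proteins and immune complexes from the blood with the stabilin, lectin and Fc receptors, and they hold growth factor receptors that keep the sinusoid in its differentiated state. They also secrete factors that act on neighbouring hepatocytes and stellate cells. Several of the markers are shared with other cells: Stab1 and Fcgr2b with macrophages, Fcgr2b with B cells, Lyve1 with lymphatic endothelium, and Pecam1 with platelets and leukocytes.

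The values are log2 signals, and a gene's value is the mean over its probe sets with a group mean of 3 or more. Array medians lay between 6.73 and 6.95. Albumin (Alb), the marker of hepatocytes, read 13.6 to 14.1 on the 6 arrays. The control means of the 10 endothelial markers lay between 7.53 and 10.6, so each was detected, but probe sets differ in affinity and the level of one gene cannot be ranked against that of another. Dhx32 itself was lower on every mutant array, with 8.28, 8.85 and 8.62 in the controls and 6.35, 6.60 and 7.04 in the mutants (difference -1.92, SE 0.23, adjusted p = 0.183 in limma). Mutant replicate 1 stood apart from the other arrays, with correlations over all probe sets of 0.935 to 0.940, against 0.960 to 0.973 among the other 5. In whole liver, fewer endothelial cells and less RNA per cell cannot be told apart.

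The sequences just upstream of 3 of the genes are shown because these genes parted on mutant replicate 1. Stab2 and Kdr were low on that array, and Clec4g was highest there. On mutant replicate 2 all 3 lay below every control. Their distances from the control mean there were -0.37 (Stab2), -0.43 (Kdr) and -0.47 (Clec4g). On mutant replicate 3 Kdr and Clec4g both lay above every control. RefSeq promoters (build GRCm38.p6) were matched for 6 of the 10 genes, namely Stab1, Stab2, Clec4g, Fcgr2b, Kdr and Eng. The 250 bases before the start of each gene were searched on both strands for AGGAAG, a core of the sites of ETS factors such as Erg and Fli1, and for AGATAA, a site of GATA factors, to which the sinusoidal regulator Gata4 belongs. Capitals mark AGGAAG or its reverse complement. The Stab2 window is chr10:87007943-87008192, minus strand, the Kdr window chr5:75978456-75978705, minus strand, and the Clec4g window chr8:3720652-3720901, minus strand.
Stab2: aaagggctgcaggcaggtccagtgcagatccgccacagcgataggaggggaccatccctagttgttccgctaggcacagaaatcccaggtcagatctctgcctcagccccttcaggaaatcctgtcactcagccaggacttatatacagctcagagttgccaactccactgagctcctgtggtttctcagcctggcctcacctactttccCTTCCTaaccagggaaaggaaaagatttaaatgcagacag
Kdr: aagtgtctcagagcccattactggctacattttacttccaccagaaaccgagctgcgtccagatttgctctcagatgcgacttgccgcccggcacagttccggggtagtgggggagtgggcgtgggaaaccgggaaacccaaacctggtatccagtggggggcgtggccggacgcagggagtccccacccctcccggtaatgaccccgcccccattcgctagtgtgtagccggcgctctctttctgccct
Clec4g: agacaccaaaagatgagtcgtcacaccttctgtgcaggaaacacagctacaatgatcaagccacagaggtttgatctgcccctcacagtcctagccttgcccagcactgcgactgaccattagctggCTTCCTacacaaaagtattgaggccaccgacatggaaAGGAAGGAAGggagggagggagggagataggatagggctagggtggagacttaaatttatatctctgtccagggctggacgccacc
AGGAAG was found at 3 positions in the Clec4g window, where 2 of the matches overlap, at 2 positions in that of Eng and at 1 each in Stab1 and Stab2, and it was not in the windows of Kdr and Fcgr2b. It occurred in 29.5% of the 32851 promoter windows of this length. AGATAA was in none of the 6 windows and in 9.99% of all windows. Such a match describes letters, not binding. Only these exact letters were searched, so a window without them can still hold other forms of such sites.

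The 10 markers did not separate mutant from control samples. The mutant mean was lower for 6 genes and higher for 4, with a median difference (mutant minus control) of -0.20 log2 units. Over all 15045 genes the median difference was -0.014 and 52.5% had a lower mutant mean. In limma 0 of the 10 passed the adjusted threshold of 0.05 (adjusted p = 0.943 to 0.999), 0 had an unadjusted p under 0.05, and in 0 did the 3 mutants lie entirely to one side of the controls. Over all genes 0.00665% passed, 4.21% had an unadjusted p under 0.05 and in 9.47% the groups did not overlap. The members' counts were thus no larger than the background. The range over the 6 samples ran from 0.37 log2 units in Fcgr2b to 2.47 in Lyve1. Mutant replicate 2 lay below every control in all 10 genes. Mutant replicate 3 lay above the control mean in 9 of 10, with Stab2 the exception. Mutant replicate 1 lay below every control in 5 genes and above every control in 4. Without mutant replicate 1 all 10 genes had a lower mutant mean, with a median difference of -0.15. Without mutant replicate 2 the count was 5 of 10 and the median 0.00027, and without mutant replicate 3 it was 9 of 10 and -0.41. Without control replicate 1 the median was -0.37 and without control replicate 3 it was -0.11. No member passed the adjusted threshold in any of these fits.

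**Figure D1:**
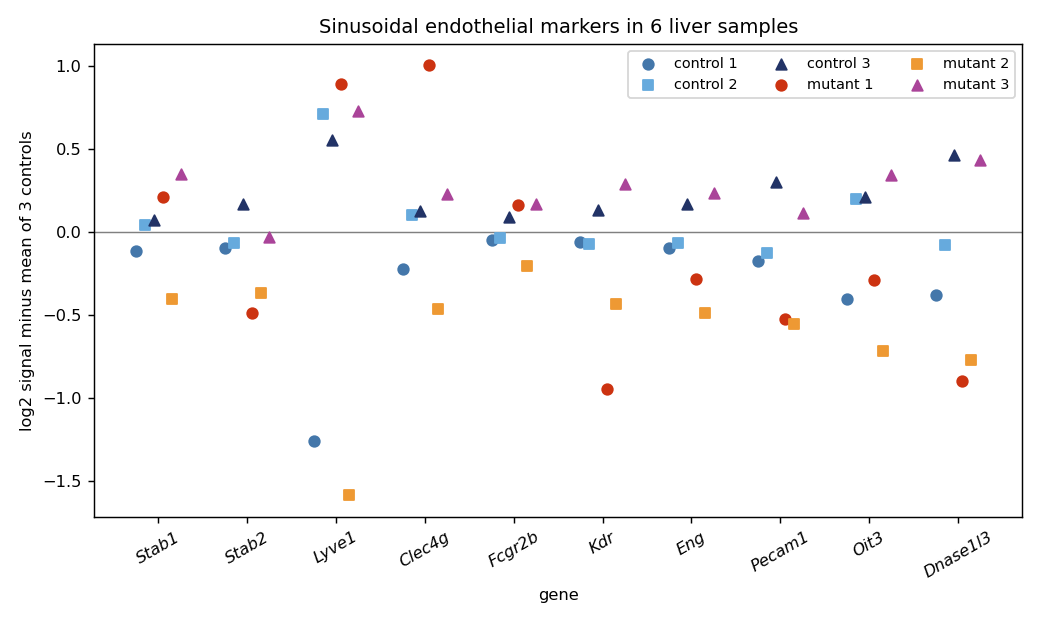
Log2 signal of each of the 10 sinusoidal endothelial markers on each of the 6 arrays, as the difference from the mean of the 3 controls (y axis); each symbol is 1 sample. Mutant replicate 2 is below every control in all 10 genes, mutant replicate 1 is low for Kdr and Dnase1l3 and high for Clec4g, and Lyve1 has 2 arrays far below the other 4.

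The scavenger receptors were examined first. Stab1 (stabilin-1), a receptor for modified lipoproteins and matrix fragments, read 8.07, 8.22 and 8.25 in the controls and 8.39, 7.78 and 8.53 in the mutants. Mutant replicates 1 and 3 were above all controls and mutant replicate 2 was below them. The difference was 0.053 (SE 0.21; adjusted p = 0.973 in limma). Stab2 (stabilin-2), the main hyaluronan clearance receptor of the sinusoid, read 9.27, 9.29 and 9.53 in the controls and 8.88, 9.0 and 9.33 in the mutants. Stab1 and Stab2 are homologues. On mutant replicate 1 Stab1 lay 0.21 above the control mean and Stab2 lay 0.49 below it. Stab2 had the smallest unadjusted p of the 10 genes (0.128), with a difference of -0.29 (SE 0.17; adjusted p = 0.943 in limma), which is 1.23-fold lower. Its highest mutant overlapped the controls.

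Fcgr2b, the inhibitory Fc receptor that clears small immune complexes, was the steadiest of the markers. Its controls read 8.21, 8.22 and 8.35 and its mutants 8.42, 8.05 and 8.43. The range over the 6 arrays was 0.37, the smallest of the 10, and the difference was 0.040 (SE 0.16). Clec4g, the C-type lectin LSECtin, read 10.36, 10.68 and 10.71 in the controls and 11.58, 10.12 and 10.81 in the mutants. Mutant replicate 1 was 1.0 above the control mean and mutant replicate 2 was 0.47 below it, so the group difference of 0.25 (SE 0.33; adjusted p = 0.948 in limma) joined mutants on both sides of the controls. Without mutant replicate 1 it was -0.12.

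Lyve1, a hyaluronan receptor of sinusoidal and lymphatic endothelium, varied more than any other member. It read 6.27 in control replicate 1 and 5.95 in mutant replicate 2, and between 8.08 and 8.42 on the other 4 arrays, namely 8.24 and 8.08 in controls and 8.42 and 8.26 in mutants. A sample of each genotype was therefore low. The range was 2.47 log2 units, the within-group SD was 1.25, and 99.8% of all genes had a smaller within-group SD. The control mean of 7.53 ± 1.09 (SD, n = 3) and the mutant mean of 7.54 ± 1.38 (SD, n = 3) differed by 0.011 (SE 0.72), with a 95% interval of -1.65 to 1.68. In all 10 Lyve1 probe sets control replicate 1 and mutant replicate 2 were the lowest arrays, below each of the other 4 by 0.50 to 2.53. These probe sets lie in the same transcript and share the same samples. The difference depended on which sample was left out and ran from -0.62 without control replicate 1 to 0.81 without mutant replicate 2.

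The growth factor receptors Kdr and Eng were both highest on mutant replicate 3. Kdr was lowest on mutant replicate 1 and Eng on mutant replicate 2. Kdr, the principal receptor of VEGF-A on endothelium, read 9.27, 9.26 and 9.47 in the controls and 8.39, 8.90 and 9.62 in the mutants. Mutant replicates 1 and 2 were below all controls and mutant replicate 3 was above them. The difference was -0.36 (SE 0.29; adjusted p = 0.943 in limma), and it was -0.073 without mutant replicate 1 and -0.69 without mutant replicate 3. Eng (endoglin), the coreceptor for BMP9, read 8.91, 8.94 and 9.18 in the controls and 8.73, 8.52 and 9.24 in the mutants. Its difference was -0.18 (SE 0.21), again with mutant replicate 3 highest. It was -0.025 without mutant replicate 2, -0.097 without control replicate 3 and -0.39 without mutant replicate 3.

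Pecam1, the adhesion molecule of endothelial junctions, read 8.29, 8.33 and 8.76 in the controls and 7.93, 7.90 and 8.57 in the mutants, a difference of -0.32 (SE 0.23). Mutant replicates 1 and 2 were again below all controls, while mutant replicate 3 lay within them. The Pecam1 difference was -0.17 without control replicate 3, -0.21 without mutant replicate 2 and -0.54 without mutant replicate 3. Dnase1l3, a nuclease that degrades circulating chromatin, read 9.44, 9.74 and 10.28 in the controls and 8.93, 9.05 and 10.26 in the mutants. It had the largest difference of the 10 genes, -0.41 (SE 0.37; adjusted p = 0.943 in limma), or 1.33-fold lower. Its value was -0.83 without mutant replicate 3, -0.17 without mutant replicate 1, -0.18 without control replicate 3 and -0.23 without mutant replicate 2. Oit3, a secreted protein with a zona pellucida domain, read 8.30, 8.91 and 8.92 in the controls and 8.42, 7.99 and 9.05 in the mutants. Only mutant replicate 2 was below the controls in Oit3, and the difference of -0.22 (SE 0.29) was 0.025 without that array. The 95% intervals of all 10 differences included 0. They were narrowest for Fcgr2b (-0.33 to 0.41) and Stab2 (-0.69 to 0.10), and widest for Lyve1, and that of Dnase1l3 was -1.26 to 0.43.

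**Figure D2:**
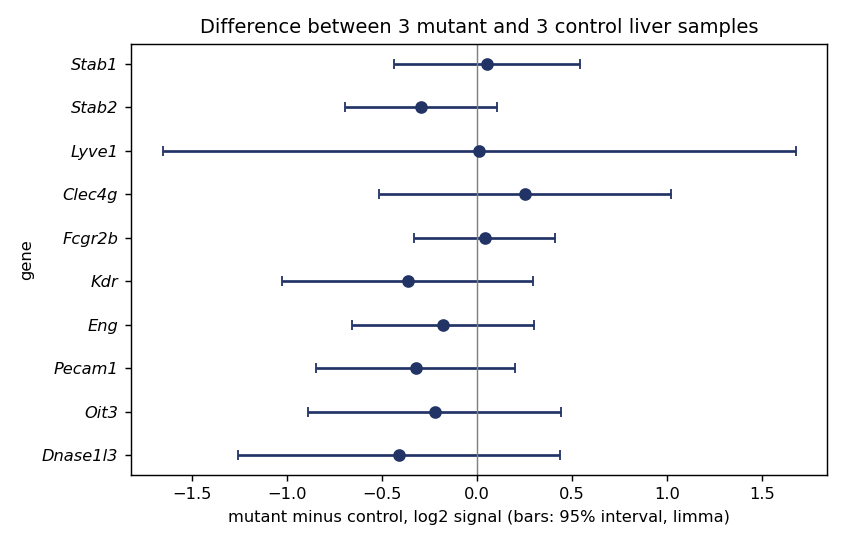
Difference between the means of 3 mutant and 3 control samples for each marker (x axis, log2 signal), with bars for the 95% interval from limma. All 10 intervals include 0, from -0.33 to 0.41 for Fcgr2b to -1.65 to 1.68 for Lyve1.

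The probe sets of each gene showed how many of them shared these patterns. Of 252 probe sets that name 1 of the 10 genes, 251 passed the signal minimum, and the 1 left out belonged to Stab1. Another 4 probe sets shared between Fcgr2b and Fcgr3 and 2 shared between Oit3 and Oas3 were not used. The mutant mean was lower in 64 of 69 probe sets of Stab2, 27 of 28 of Kdr, 20 of 22 of Eng, 14 of 16 of Pecam1, 11 of 11 of Oit3 and 7 of 7 of Dnase1l3. It was higher in 8 of 8 of Clec4g, and mixed in Stab1 (33 lower, 36 higher), Lyve1 (6 and 4) and Fcgr2b (6 and 5). Mutant replicate 1 was the highest array in 8 of 8 probe sets of Clec4g and in 0 of 28 of Kdr. It was the lowest in 22 of 28 of Kdr and 36 of 69 of Stab2. Mutant replicate 2 was below the control mean in all 28 probe sets of Kdr, all 16 of Pecam1, all 11 of Oit3 and all 7 of Dnase1l3. In Kdr the distance of mutant replicate 1 from the control mean was unequal between probe sets, from -2.38 to -0.20 with a median of -0.69.

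**Figure D3:**
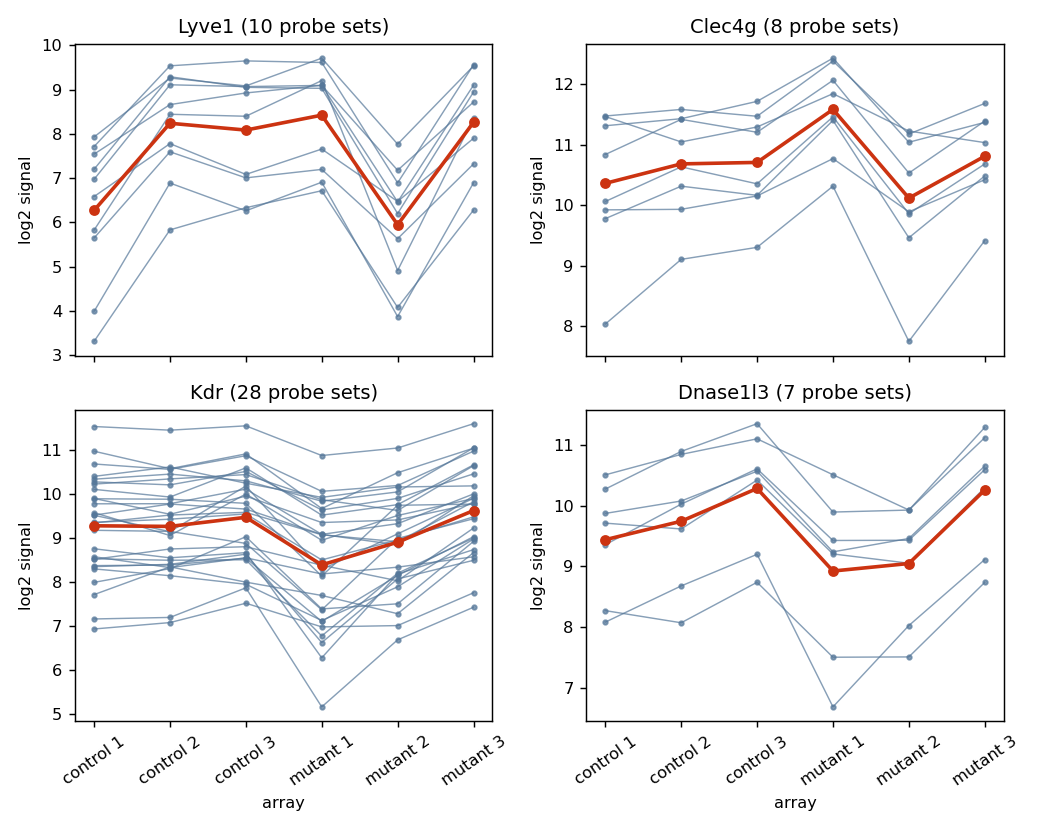
Log2 signal (y axis) of every probe set used for Lyve1, Clec4g, Kdr and Dnase1l3 on the 6 arrays (x axis); thin lines are single probe sets and the thick line is their mean. All 10 Lyve1 probe sets dip at control replicate 1 and mutant replicate 2, and all 8 Clec4g probe sets peak at mutant replicate 1.

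Single probe sets and exon usage gave no call either. In limma 0 of the 251 probe sets passed after adjustment (0% of 191663 overall), and 2 had an unadjusted p under 0.05 (4.07% overall). These were Stab1 probe set 4810407 and Stab2 probe set 5034471. The Stab1 probe set was near the signal minimum, at 2.67 in controls and 3.57 in mutants. It was kept only through its mutant mean, so its p-value is no support for a difference. The Stab2 probe set read 9.26, 9.40 and 9.45 in the controls and 8.38, 8.68 and 9.13 in the mutants. In 21 of the 251 probe sets the groups did not overlap, against 8.45% of all probe sets, and 14 of the 21 were Stab2 probe sets that were lower in all 3 mutants. Exon usage, meaning that part of a gene's probe sets shift against the others, was tested with the F-test of limma's diffSplice. None of the 10 genes passed (adjusted p = 1 for each, with 0 at an unadjusted p under 0.05). The smallest unadjusted p was 0.600, for Fcgr2b. Over all 14310 genes 0.210% passed and 4.0% had an unadjusted p under 0.05.

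Other genes of the endothelium were then compared. Of 38 measured endothelial genes outside the 10 markers, 27 had a lower and 11 a higher mutant mean, with a median difference of -0.10. None passed in limma, and 1 had an unadjusted p under 0.05 (4.21% over all genes). This was Nrp1, the neuropilin coreceptor of VEGF, at 9.46, 9.18 and 9.0 in the controls and 9.54, 9.52 and 9.89 in the mutants (difference 0.44, SE 0.18, adjusted p = 0.943). All 3 mutants were above the controls. Tie1, an orphan receptor of the angiopoietin system, was also above the controls in all 3 mutants (0.31, SE 0.16). Cdh5 (VE-cadherin) at -0.40 (SE 0.22) and Notch1 at -0.30 (SE 0.17) were next by unadjusted p. Nos3 also lay above the controls in all 3 mutants (0.13, SE 0.14), and Sox7 lay below them (-0.26, SE 0.17). The groups thus did not overlap in 4 of the 38 genes, against 9.47% of all genes. With 1 array left out, Cdh5 ran from -0.57 (without mutant replicate 3) to -0.22 (without control replicate 3), Notch1 from -0.44 to -0.20 and Tie1 from 0.19 to 0.38. Gata4, the transcription factor of the sinusoidal program, differed by -0.044 (SE 0.20). The mean of the 38 genes lay at -0.25, -0.18 and 0.16 from the control mean in mutant replicates 1, 2 and 3. Mutant replicate 3 was thus the highest array here too. Without mutant replicate 3 the median difference was -0.27 and without mutant replicate 1 it was -0.027.

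**Figure D4:**
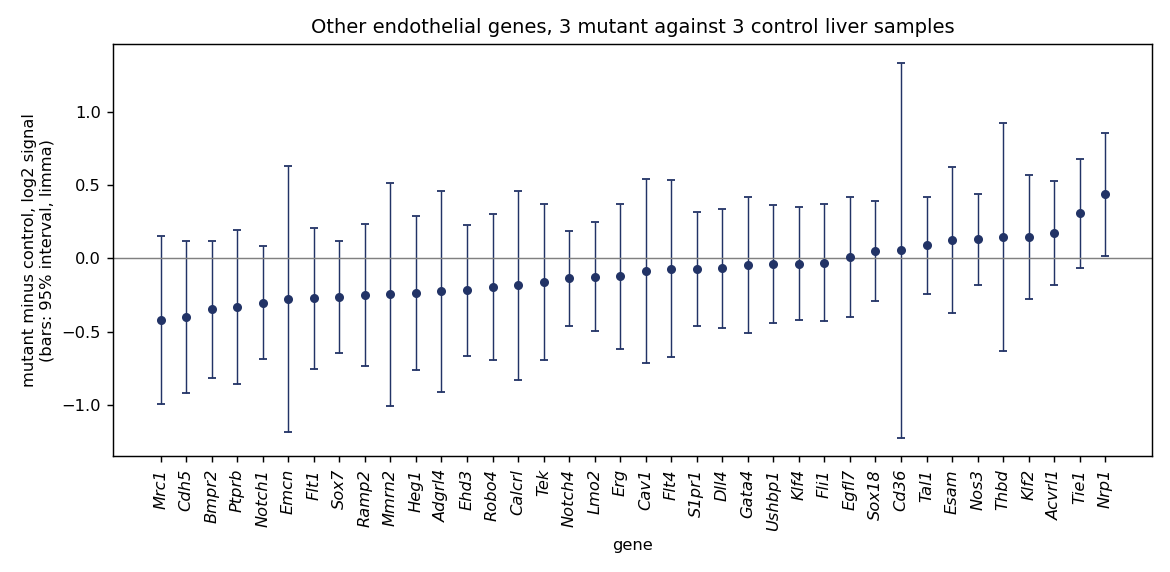
Difference between mutant and control means (y axis, log2 signal) of 38 endothelial genes outside the 10 markers, with the 95% interval from limma, ordered by size. Nrp1 at 0.44 is the one gene whose interval leaves out 0.

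Secreted signals and ligands were in the same range. Of 9 measured genes for signals from sinusoidal endothelium to its neighbours, 8 had a lower mutant mean (median -0.12). In limma 0 of them were called (0 also by the unadjusted p). Among the 9, the Notch ligand Dll4 was also counted with the 38 endothelial genes above. The clotting factor gene F8 differed by -0.33 (SE 0.24), the Wnt amplifier Rspo3 by -0.24 (SE 0.26) and Hgf by -0.17 (SE 0.21). Without mutant replicate 1 the differences of F8, Rspo3 and Hgf were -0.16, 0.041 and 0.0071. That of F8 ran from -0.53 without mutant replicate 3 to -0.15 without control replicate 3. Dkk3 was the 1 gene with a higher mean (0.26, SE 0.16). Of 10 measured ligands of the VEGF, angiopoietin, BMP and TGF-beta families, 6 were lower and 4 higher (median -0.047), and 0 passed. In 1 of them, Angpt1, the unadjusted p in limma was under 0.05 (4.21% over all genes). The groups also did not overlap in Angpt1 alone of the 10 (9.47% over all genes). Angpt1, the activating ligand of Tek, was low on all 3 mutant arrays at 4.35, 4.91 and 5.05, against 5.22, 5.37 and 5.52 in the controls (difference -0.60, SE 0.21, adjusted p = 0.943 in limma). The Angpt1 difference was -0.34 with no signal minimum, -0.36 with the median over probe sets and -0.39 without mutant replicate 1. Gdf2 (BMP9), the ligand of Eng made in liver, differed by -0.54 (SE 0.27) and by -0.23 without mutant replicate 1. Tgfb1 (0.13, SE 0.19) and Angpt2 (0.10, SE 0.16) followed.

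Markers of larger vessels, or of sinusoids that take on a capillary character, were split, with 8 of 15 higher and 7 lower in mutants (median 0.047). None passed in limma, and 2 had an unadjusted p under 0.05 (4.21% over all genes). The groups did not overlap in 4 of the 15 (9.47% over all genes). Gja4, a connexin of arterial endothelium, read 4.91, 4.87 and 5.17 in the controls and 6.43, 5.21 and 5.90 in the mutants (0.87, SE 0.29). Edn1 (endothelin-1) read 5.37, 5.26 and 5.36 in the controls and 4.48, 4.70 and 5.23 in the mutants (-0.53, SE 0.21). Both had an adjusted p = 0.943. In these genes the groups did not overlap, and both were dim. Their differences were 0.58 and -0.36 without mutant replicate 1. The leukocyte adhesion molecule Sele differed by 0.31 (SE 0.16) and the arterial ligand Efnb2 by -0.37 (SE 0.24, -0.62 to -0.23 with 1 array left out).

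Several other lists moved with the same arrays, and their part in the endothelial values was not tested. The mean of 15 Kupffer cell and macrophage markers ran from -0.30 to 0.16 about the control mean in controls and from -0.29 to 0.51 in mutants, with 7 genes higher and 8 lower. This list was low on control replicate 1 (-0.30), mutant replicate 2 (-0.29) and mutant replicate 3 (-0.24) and highest on mutant replicate 1. Clec4g and Lyve1 were also highest on mutant replicate 1, at 1.0 and 0.89 above the control mean. On mutant replicate 3, however, they lay 0.23 and 0.73 above it. No gene of this list had an unadjusted p under 0.05 or passed in limma. The scavenger receptor gene Marco differed by 0.71 (SE 0.35), and Csf1r, the receptor that macrophages need to survive, by -0.34 (SE 0.20). Marco ran from 0.37 without mutant replicate 1 to 1.08 without mutant replicate 3. Clec4f, a lectin of Kupffer cells, read 8.37, 8.77 and 8.95 in the controls and 9.15, 8.08 and 8.40 in the mutants. The mean of 14 hepatic stellate cell markers was lowest on mutant replicate 1 (-0.56), as were Kdr, Dnase1l3 and Stab2, and ran from -0.12 to 0.12 in controls. The markers were not uniform, with 3 higher and 11 lower in mutants (median -0.15). On mutant replicate 1 Reln, Dcn, Lrat and Ecm1 lay at -1.89, -1.67, -1.61 and -1.52 from the control mean. Des, Hand2 and Col1a1 lay above it there, at 0.25, 0.24 and 0.19. Of the 14 markers, Dcn (-0.81, SE 0.34) and Reln (-0.93, SE 0.40) had an unadjusted p under 0.05 (4.21% over all genes) and an adjusted p = 0.943 in limma. Without mutant replicate 1 they differed by -0.39 and -0.45. Lrat, which esterifies retinol for storage, differed by -0.85 (SE 0.39), and Ecm1 by -0.69 (SE 0.37). Without mutant replicate 1 these 2 genes differed by -0.47 and -0.27. The acute phase genes of hepatocytes lay 2.21, 0.99 and 0.58 above the control mean in the 3 mutants, over 11 genes, and neutrophil markers 0.88 above it in mutant replicate 1, over 10 genes. None of these or of the clock genes passed in limma (smallest adjusted p = 0.547, for Lcn2, a siderophore-binding protein). An unadjusted p under 0.05 was found in 5 of 11 acute phase, 2 of 10 neutrophil and 1 of 12 clock genes (4.21% over all genes). The mean of 12 clock genes was lowest on mutant replicate 1 (-0.71), mutant replicate 2 (-0.51) and control replicate 1 (-0.35). On the same 3 arrays the mean of the 10 endothelial markers was low (-0.12, -0.60 and -0.29). Those arrays also had the 3 lowest medians over all probe sets (6.73, 6.79 and 6.81, against 6.88 to 6.95 elsewhere). A link between these was not tested. The mean of the hepatocyte markers differed less, from -0.066 to 0.051 in controls and from -0.066 to 0.13 in mutants over 10 genes. Single genes of this list varied more than their mean. The range over the 6 arrays was 0.91 in Pck1, 0.87 in Cyp2e1 and 0.80 in Hnf4a. In the others it ran from 0.27 (Ahsg) to 0.50 (Apoa1). The lists for lymphocytes (13 genes, -0.17 to -0.024 in mutants), platelets and red cells (9 genes, 0.0087 to 0.23) and bile duct (7 genes, -0.052 to 0.48) had 0 genes past the adjusted threshold in limma. At an unadjusted p under 0.05 stood Klrb1c, a receptor of natural killer cells, at -0.48 (SE 0.19), and Pf4, a platelet chemokine, at 0.63 (SE 0.23).

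**Figure D5:**
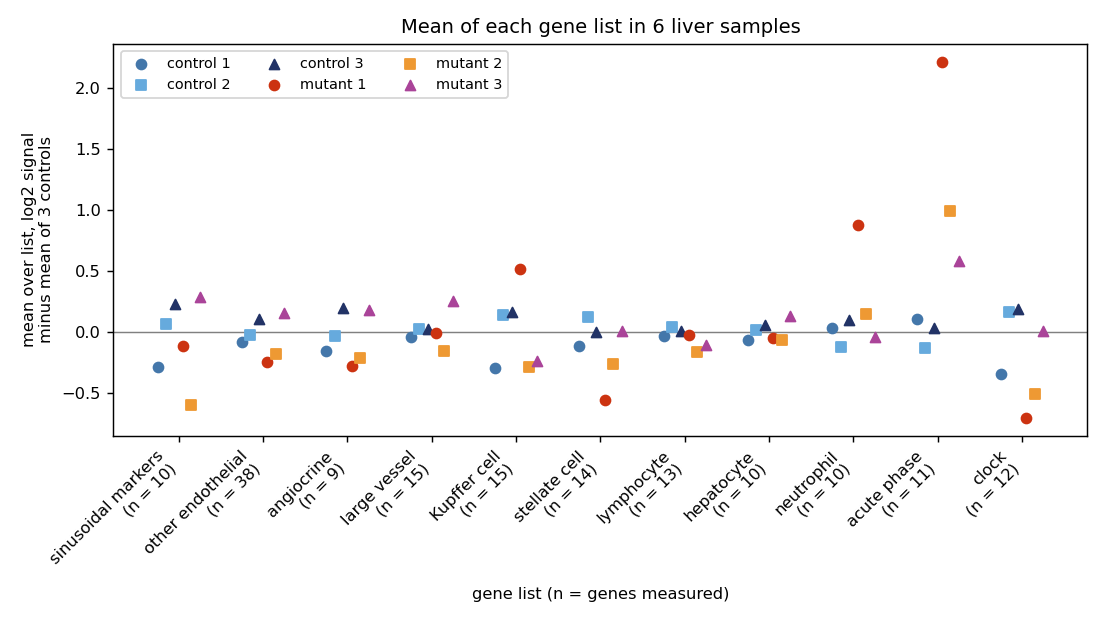
Mean of each gene list on each array, as the difference from the mean of the 3 controls (y axis, log2 signal); each symbol is 1 sample and n is the number of genes measured. The sinusoidal markers run from -0.60 in mutant replicate 2 to 0.28 in mutant replicate 3, and the acute phase list reaches 2.21 in mutant replicate 1.

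By a fixed rule the 3 genes outside all lists with the array profile most like the mean of the 10 markers were Coq9, Tbc1d20 and Eps15l1. Their Pearson correlations with that mean over the 6 arrays were 0.996, 0.993 and 0.990, given as a description, since 217 of 9714 ranked genes exceeded 0.9 on so few arrays. Coq9, which acts in coenzyme Q synthesis, read 10.12, 10.41 and 10.50 in the controls and 10.21, 9.91 and 10.54 in the mutants. Mutant replicate 2 was the lowest and mutant replicate 3 the highest array for Coq9, as for Stab1, Fcgr2b, Eng and Oit3 among the markers.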

How the data were processed

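Per the labels' protocols, total RNA from snap-frozen liver was amplified, biotin-labelled and hybridised to Affymetrix exon arrays. The authors deposited a table of log2 signals covering 204531 probe sets and 6 arrays. The submitters' processing notes list Affymetrix Expression Console 1.1, RMA, Partek 6.4 and mm9, with no role for each. Per the series' design text, Partek served to test splicing on core probe sets with signals of 3 or more; here limma was used instead. In general, RMA evens out array-wide differences and compresses those of dim probe sets.

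Probe sets with 1 gene symbol (185264) were named from the platform table, with older symbols updated through RefSeq. A probe set was kept where a group mean was 3 or more (191663 kept). Genes with at least 2 kept probe sets were summarised by averaging these. The mutant minus control difference was fitted by limma 3.58.1 (R 4.3.3; lmFit, then eBayes). P-values were adjusted by Benjamini and Hochberg's method across the whole table, and 0.05 was the threshold. For exon usage, diffSplice was run on 14310 genes with at least 3 kept probe sets. Each step was tested on simulated data. With 3 arrays per group the exact permutation test cannot go below p = 0.1. The arrays' number limits the precision. The members and the 13 other lists were chosen with earlier results of these data known. Named were all 10 members, the gene labelled as mutated, up to 4 genes of smallest p in a list, the 3 genes outside the lists of most similar profile, and a member's probe set of smallest p. Gata4, Clec4f, Alb, Des, Hand2, Col1a1, Sox7, Nos3, Dll4, Pck1, Cyp2e1, Hnf4a, Ahsg and Apoa1 were named after their values were seen. The alternatives were other signal minimums, scalings, gene summaries and weights, a trend, a replicate block and leaving out each array.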

Additional observations from a re-analysis of the deposited data

How the results depend on the processing

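No member passed the adjusted threshold under any of the 14 alternatives, at the gene, probe set or exon usage level. The count of members with a lower mutant mean was 10 with array weights and ran from 5 to 10 when 1 array was left out. The median difference of the members ran from -0.41 to 0.00027 with 1 array left out. Stab2, Kdr, Eng, Pecam1 and Dnase1l3 were lower in mutants under all 14 alternatives. Signs turned in Lyve1 (-0.020) and Fcgr2b (-0.22) with the median over probe sets, and with array weights in Stab1 (-0.16), Lyve1 (-0.94), Clec4g (-0.13), Fcgr2b (-0.076) and Tgfb1 (-0.026). With 1 array left out the differences ran from -0.095 to 0.28 in Stab1, -0.62 to 0.81 in Lyve1, -0.12 to 0.61 in Clec4g, -0.024 to 0.16 in Fcgr2b and -0.50 to 0.025 in Oit3. They ran from -0.45 to 0.041 in Rspo3, -0.37 to 0.0071 in Hgf and -0.031 to 0.29 in Tgfb1. The cause was not tested. Without mutant replicate 3, Stab2, Kdr, Pecam1 and Dnase1l3 had an unadjusted p under 0.05 in limma (adjusted p = 0.552 each), and so did 1356 of all genes, against 633 with all arrays. Dhx32 passed with quantile normalization (adjusted p = 0.0411), median centring (0.0339) and array weights (0.0273). The count over all genes past the adjusted threshold ran from 0 to 3, with 18 to 44 genes for exon usage under the other settings and 13 to 58 with 1 array left out.

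The labels do not say whether equal replicate numbers pair the samples. Deviations of same-numbered arrays from their group means correlated at 0.098, -0.11 and 0.18, and those of unequal numbers at -0.30 to 0.21. With 3 arrays per group these values depend on one another and cannot decide whether samples were paired. With the replicate block 0 members passed, 0 genes were called and 18 genes passed for exon usage.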

Other observations

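Lyve1 shared its 2 low samples with a few genes, chosen after their values were seen and given with no test. Control replicate 1 and mutant replicate 2 both lay more than 1 log2 unit below every other array in 9 of 15045 genes, and more than 1 above them in 1 gene, Atp5md. Over all probe sets these 2 arrays also had the highest correlation of any pair of arrays (0.973). Lyve1 had the second widest gap (1.81), after the metallothionein gene Mt2 (1.99). The noncoding RNA gene Gas5 (1.80), Mt1 (1.42), the interferon-inducible Ifi204 (1.34) and Ifi205 (1.08), Fkbp5 (1.24), a chaperone partner of steroid receptors, Herpud1 (1.08), which acts in the unfolded protein response, and the glycolytic regulator Pfkfb3 (1.04) made up the rest.

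Mt2 read 5.96, 9.41 and 10.17 in the controls and 12.98, 6.29 and 8.28 in the mutants. Fkbp5 read 8.34, 9.57 and 10.49 in the controls and 9.60, 7.67 and 9.85 in the mutants. In these genes, as in Lyve1, a sample of each genotype was low. Mt1 and Mt2 were highest on mutant replicate 1, at 12.80 and 12.98, as were Lyve1 and Clec4g. In Lyve1 the lead was small, with 8.42 there, 8.26 on mutant replicate 3 and 8.24 on control replicate 2. Mutant replicate 1 was the highest array in 5 of the 10 Lyve1 probe sets.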
